A study of Homo sapiens with 9 samples.

Results

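RNA that moved with an FTO construct, whichever of the 2 constructs the cells carried, was sought by setting the average of the FTO and mut-FTO groups, each with a weight of 0.5, against Vector. The members are the features of the count table, 21170 of 21170, of which 17167 were counted at least once and 13713 passed the filter on low counts and were tested. The 9 libraries of mRNA came from HaCaT, an immortalized human keratinocyte line. They were 3 libraries of cells with an empty vector (Vector), 3 of cells overexpressing wild-type FTO (FTO) and 3 of cells overexpressing an FTO whose demethylase activity is disrupted by mutation (mut-FTO). The control cells carried a vector too, and the labels give no other allele, agent or time. They do not state the mutation, the promoter of the constructs, whether a group was 1 clone or a mixed population, or whether the 3 libraries of a group were grown apart. The p-values therefore measure the spread between these libraries, which may be technical, and the effect of a construct and any other trait of the cells holding it cannot be told apart. The columns of the count table carry letters in place of the group names (N, F and tF, read as Vector, FTO and mut-FTO), so that FTO and mut-FTO are told apart by their letters alone. Since both constructs have the same weight, the pooled contrast would keep its values if those columns were exchanged. Genes that passed the pooled test or the test between constructs, but whose fitted changes against Vector had opposite signs in the 2 constructs, were set aside and are described further on.

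FTO is a dioxygenase that takes methyl groups off RNA, among them the m6A mark on adenosine, which a writer complex sets and reader proteins bind. A catalytically impaired protein is a common companion control, because it keeps the protein but not the enzymatic step. Keratinocytes change their keratins and build a cornified envelope as they leave the basal layer. They also lay down the matrix they rest on and make cytokines, antigen-presenting molecules and the proteins of the interferon response.

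The libraries held 32222203 to 37846027 counts. Vector replicate 3 stood apart from the other Vector libraries: mitochondrially encoded genes took 14.97% of its counts, against 4.16% and 4.2% in the other 2, 3.80% to 4.32% in FTO and 5.52% to 7.45% in mut-FTO. Loci assembled without a gene name took 2.498% of the counts of Vector replicate 3 and 3.17% of those of mut-FTO replicate 2, against 0.689% to 0.874% in the remaining 7. Values with and without Vector replicate 3 are given for many of the lists and genes below, though not for all. The 15 markers of keratinocyte identity were present in all libraries, and 0 of 15 passed edgeR's test (1 did by DESeq2 and 1 by limma-voom, and 2 were higher and 3 lower at edgeR's unadjusted p below 0.05). Their summed level was 19366 to 23886 CPM in Vector, 22373 to 23084 in FTO and 25593 to 32480 in mut-FTO. Markers of other cells were low. Of 13 fibroblast markers, 3 (THY1, PRRX1 and DPT) were at 0 in all libraries, 8 were below 1 CPM in each library, and the list summed to 12.3 to 14.0 CPM in Vector, 9.19 to 12.2 in FTO and 12.2 to 13.5 in mut-FTO. The 1 fibroblast marker that passed the test was DCN, described below. Of 17 leukocyte markers, 8 were at 0 in all libraries, among them CD4, CD8A, MS4A1, NKG7, TYROBP, CD207 and CD1A, and 14 were below 1 CPM. The other 3 were CD68 (44.4 to 80.4 CPM over all libraries), LAPTM5 (0.645 to 3.84) and CD14. CD14 was 10.6 to 15.5 CPM in Vector, 15.3 to 17.4 in FTO and 24.3 to 30.3 in mut-FTO. The leukocyte list summed to 70.0 to 94.5, 68.2 to 75.5 and 70.7 to 110.5 CPM. TYR and DCT of the 8 melanocyte markers (0.935 to 1.49, 1.5 to 2.36 and 1.53 to 2.76 CPM in sum) and PECAM1, TIE1 and CLDN5 of the 9 endothelial markers (1.21 to 2.18, 0.830 to 1.37 and 0.780 to 1.94) were at 0 as well. None of the leukocyte, melanocyte and endothelial markers passed edgeR's test, of the 9 that could be tested. By DESeq2 1 leukocyte marker was higher and 1 lower, and 1 endothelial marker was lower. By limma-voom 1 leukocyte marker was higher, as it was in edgeR's fit without Vector replicate 3. The part of other cells in the results was not tested beyond these levels.

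FTO itself was checked first. Its level in CPM, counts scaled to a common library size, was 18.4, 17.0 and 25.8 in the Vector libraries, 69.6, 77.1 and 62.6 in the FTO libraries and 49.7, 82.7 and 64.3 in mut-FTO. Each of the 6 construct libraries was above each Vector library, and the construct groups overlapped. The pooled log2 fold change was 1.73, with a standard error (SE) of 0.20 and an adjusted p of 0.000323. Here and below, an adjusted p is from edgeR's quasi-likelihood test with Benjamini-Hochberg adjustment over the 13713 genes, and a gene below 0.05 is said to have risen or fallen. FTO differed by 0.091 on the log2 scale between the constructs, with a 95% interval of −0.38 to 0.56. The constructs thus were alike in FTO RNA to within 2-fold, although the counts do not separate the cells' own FTO transcript from the introduced one.

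Against Vector, 698 of 13713 genes (5.09%) passed the test with the constructs pooled. More fell than rose: 465 genes (3.39%) were lower and 233 (1.7%) higher, and 26 of the 698 were assembled loci without a gene name. At an unadjusted p below 0.05 there were 2548 genes. In 695 of the 698 the constructs had the same sign, and in 3 (CPPED1, SERPINB2 and THBS1) they did not. The selection itself favours equal signs, since the test takes the average of 2 changes against the same Vector libraries. These counts are therefore no separate evidence that the constructs agree. Of these 695 genes, 577 had all 6 construct libraries on one side of the 3 Vector libraries, a pattern found in 1355 of all 13713 genes (9.88%). Genes called against Vector are expected to show this pattern more often, because they were chosen for lying apart from it. The smaller of the 2 construct changes was at least 2-fold in 225 of the 695, of which 76 were higher and 149 lower. It was at least 1.5-fold in 462 and below 1.2-fold in 25. In 19 of the 695 a group had no count at all, and with these set at 3 counts the number past 2-fold was again 225.

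The shared direction came with unequal size. The median absolute log2 change of the 695 genes was 0.77 in FTO and 1.39 in mut-FTO, and 612 of them had the larger change in mut-FTO. A direct test of FTO against mut-FTO called 319 genes (2.33%), and 178 of the 695 were among them, 175 with the larger change in mut-FTO and 3 in FTO. Without Vector replicate 3, which enters that test through the shared estimate of spread, 1427 genes were called between the constructs, and with any 1 FTO library, mut-FTO replicate 2 or mut-FTO replicate 3 left out 71 to 106 were. For 271 genes (84 higher, 187 lower) the 95% interval of the difference between constructs lay inside 2-fold, so that the constructs were alike to that bound. For 73 genes it lay inside 1.5-fold. The other 246 could not be placed, because the interval was wider than 2-fold and the test was not passed. These classes followed the libraries too, with 54 to 519 genes different and 78 to 756 alike over the 9 fits with a library left out, both highest without Vector replicate 3. Each construct alone, set against the same 3 Vector libraries, called 102 genes in FTO (0.744%) and 1067 in mut-FTO (7.78%). Of the 698 pooled calls, 93 were called in both of these, 543 in mut-FTO alone, 7 in FTO alone and 55 in neither.

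**Figure D1:**
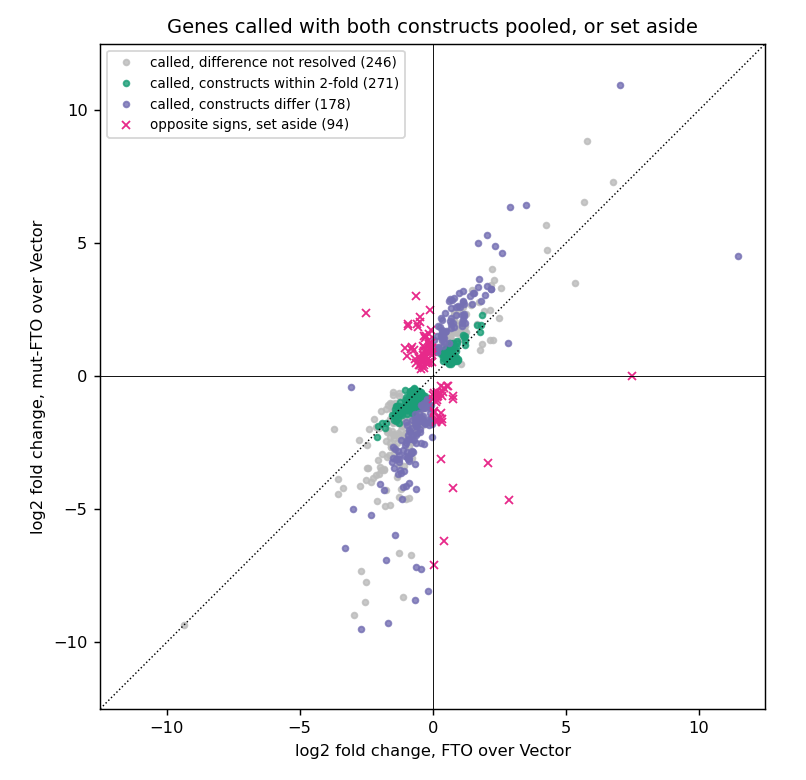
The log2 fold change over Vector is plotted for FTO (x axis) and mut-FTO (y axis), each point a gene. The 695 pooled calls with 1 sign are purple where the constructs differed (178), green where they lay within 2-fold (271) and grey where the difference was not resolved (246); pink crosses are the 94 set-aside genes, and most points lie farther from 0 on the mut-FTO axis than on the FTO axis.

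FN1, IFI27, BST2 and KRT1 were named as markers of the contrast with earlier results known. FN1 encodes fibronectin, a matrix glycoprotein that cells bind through integrins. FN1 stood at 220.1, 229.8 and 279 CPM in Vector, 25.2, 39.1 and 26.9 in the FTO libraries and 7.0, 8.93 and 7.25 in mut-FTO. The groups did not overlap, and mut-FTO was the lowest. FN1 fell by 3.99 on the log2 scale with the constructs pooled (SE 0.17, adjusted p = 1.27e-07), the smallest adjusted p of all genes tested. The fall was 8.0-fold in FTO and 31.4-fold in mut-FTO, and the constructs differed from each other by 3.93-fold (adjusted p = 0.000531). KRT1, the type II keratin of suprabasal layers, went the other way. Its level was 2.63, 4.22 and 4.03 CPM in Vector, 21.2, 20.9 and 25.1 in the FTO libraries and 87.2, 88.9 and 94.8 in mut-FTO. The order of the groups was the reverse of that for FN1, again without overlap. KRT1 rose 6.16-fold in FTO and 24.8-fold in mut-FTO, and 12.4-fold with the constructs pooled (log2 SE 0.20, adjusted p = 1.35e-06).

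IFI27, a small mitochondrial and nuclear membrane protein of the interferon response, measured 119, 87.0 and 17.0 CPM in Vector, 5.84, 5.90 and 7.01 in the FTO libraries and 4.27, 2.48 and 3.52 in mut-FTO. Vector replicate 3 was the lowest of its group but above each construct library. IFI27 fell by 4.0 (log2, SE 0.42, adjusted p = 0.000186) with the constructs pooled and fell by 4.49 without Vector replicate 3. BST2, or tetherin, holds budding viruses at the cell surface. It stood at 19.2, 11.9 and 9.0 CPM in Vector, 2.02, 0.724 and 1.14 in the FTO libraries and 0.811, 0.679 and 0.665 in mut-FTO. All construct libraries lay below all Vector libraries, while the construct groups overlapped. The pooled fall was 13.8-fold (log2 SE 0.31, adjusted p = 2.21e-05). Neither IFI27 (difference 0.86, 95% interval −0.26 to 1.99, log2) nor BST2 (0.85, −0.028 to 1.72) passed the test between constructs, and both intervals reach beyond 2-fold.

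**Figure D2:**
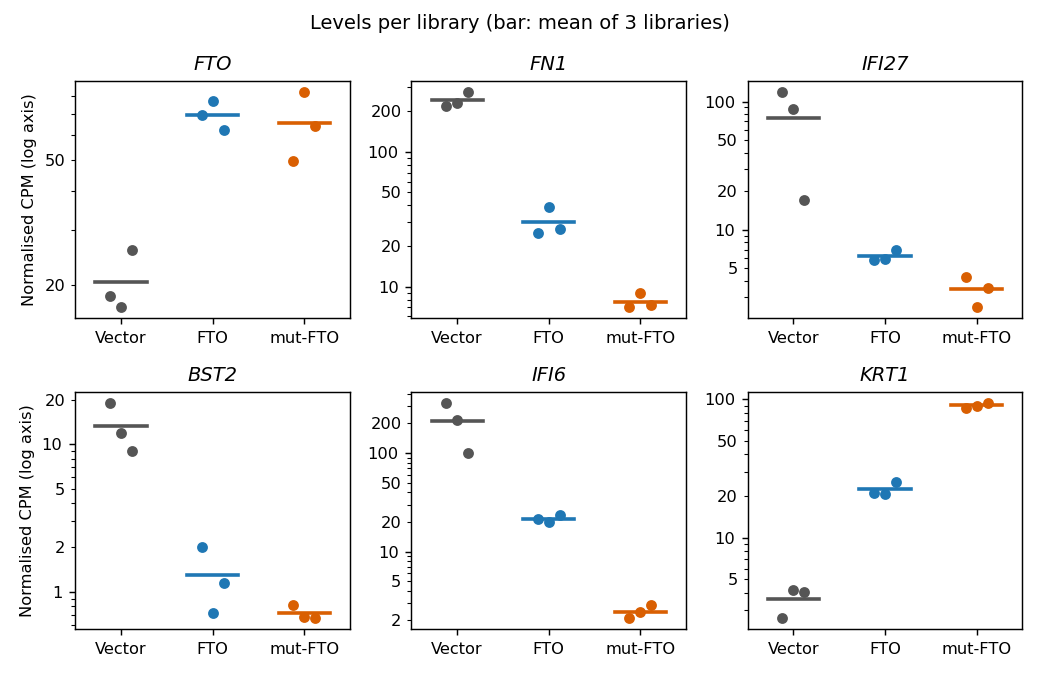
Normalised CPM (log axes) of FTO, the 4 markers FN1, IFI27, BST2 and KRT1, and IFI6 in each of the 9 libraries, with a bar at the mean of each group of 3. For FTO, FN1, IFI27, BST2 and IFI6 all construct libraries lie on one side of all Vector libraries, and KRT1 rises from 2.63 to 4.22 CPM in Vector to 87.2 to 94.8 in mut-FTO.

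The interferon response was the list with the most falls. The list counts here and below stand beside 3.39% of all genes tested that fell and 1.7% that rose. Interferons bind surface receptors, and the STAT and IRF factors so activated turn on genes through short promoter elements. Of 45 tested response genes 21 fell and 0 rose (DESeq2 gave 24 and 0, and an unadjusted p below 0.05 gave 27 and 0), and the median log2 change of the list was −0.70, against −0.0053 over all genes tested. Without Vector replicate 3 the count was 27 lower and 0 higher. The median was −0.52 in FTO and −0.85 in mut-FTO, and 9 of the 45 differed between the constructs. IFI6, an inhibitor of cell death and of viral replication, had the lowest p. It measured 326, 215 and 101 CPM in Vector, 21.4, 19.9 and 23.3 in the FTO libraries and 2.11, 2.41 and 2.86 in mut-FTO. The lowest Vector library was again replicate 3, and the 3 groups were apart. IFI6 fell 29.4-fold with the constructs pooled (log2 −4.88, SE 0.28, adjusted p = 1.35e-06), by 9.92-fold in FTO and 86.9-fold in mut-FTO.

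MX1, a GTPase that blocks viral nucleocapsids, was 12.7, 12.9 and 16.7 CPM in Vector, 3.05, 3.59 and 3.32 in the FTO libraries and 2.57, 2.99 and 3.24 in mut-FTO. Here Vector replicate 3 was the highest of its group, and the construct groups overlapped. MX1 fell 4.52-fold (adjusted p = 2.17e-05), and the constructs differed by 0.18 (95% interval −0.28 to 0.65, log2), so they were alike to within 2-fold. OAS2, which makes the second messenger that activates RNase L, was 20.05, 23.4 and 29.8 CPM in Vector, 7.81, 6.79 and 7.10 in the FTO libraries and 4.70, 4.24 and 4.65 in mut-FTO. It too was highest in Vector replicate 3 among all libraries. OAS2 fell 4.26-fold (log2 −2.09, SE 0.16, adjusted p = 1.61e-05). The other 16 genes of the list that fell, IFIT2, RSAD2, CMPK2, IFIT3, EPSTI1, OAS3, OASL, TRIM22, XAF1, LGALS3BP, GBP1, IFI44, IFIT1, DDX60, OAS1 and IFITM1, had pooled log2 changes of −2.45 (IFI44) to −0.58 (IFITM1). IFIT genes are related copies of one another, and how reads were shared among them is not known. The receptors and signal transducers behind the response were tested as a list of their own. Beside 3.39% lower and 1.7% higher over all genes tested, 1 of its 22 genes fell and 0 rose (median 0.068). It was MB21D1, the DNA sensor cGAS, at 11.6, 11.6 and 11.5 CPM in Vector, 9.32, 8.99 and 7.95 in the FTO libraries and 6.24, 5.19 and 6.47 in mut-FTO (log2 −0.68, SE 0.16, adjusted p = 0.0253). Its groups did not overlap, but the call was lost without Vector replicate 2, any 1 of the FTO libraries or mut-FTO replicate 3, with adjusted p up to 0.102.

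The start regions of such genes are shown because an interferon-stimulated response element, read as GAAA, any 2 bases and GAAA on either strand, was searched in them. The sequences are the 250 bases before the annotated start, 5′ to 3′ in the direction of the gene, from RefSeq on GRCh38.p14, with motif matches in capitals. They are IFI27 (chr14:94110486-94110735, plus strand), BST2 (chr19:17405631-17405880, minus strand), IFI6 (chr1:27672193-27672442, minus strand) and IFIT3 (chr10:89327747-89327996, plus strand), the last chosen after its values were seen.
IFI27: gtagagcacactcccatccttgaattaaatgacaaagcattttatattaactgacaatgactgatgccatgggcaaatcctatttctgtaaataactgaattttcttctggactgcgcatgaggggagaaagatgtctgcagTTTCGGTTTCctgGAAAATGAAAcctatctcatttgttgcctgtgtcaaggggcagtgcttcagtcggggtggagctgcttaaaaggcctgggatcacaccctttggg
BST2: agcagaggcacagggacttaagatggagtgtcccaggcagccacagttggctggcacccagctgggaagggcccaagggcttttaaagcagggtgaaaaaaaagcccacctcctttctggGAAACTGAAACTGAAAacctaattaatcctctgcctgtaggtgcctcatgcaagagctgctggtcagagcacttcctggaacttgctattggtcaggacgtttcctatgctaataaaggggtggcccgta
IFI6: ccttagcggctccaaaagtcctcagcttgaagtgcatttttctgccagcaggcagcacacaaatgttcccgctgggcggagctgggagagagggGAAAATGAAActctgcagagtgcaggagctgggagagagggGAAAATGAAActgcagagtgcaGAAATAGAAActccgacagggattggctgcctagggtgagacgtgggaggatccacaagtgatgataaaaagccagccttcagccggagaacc
IFIT3: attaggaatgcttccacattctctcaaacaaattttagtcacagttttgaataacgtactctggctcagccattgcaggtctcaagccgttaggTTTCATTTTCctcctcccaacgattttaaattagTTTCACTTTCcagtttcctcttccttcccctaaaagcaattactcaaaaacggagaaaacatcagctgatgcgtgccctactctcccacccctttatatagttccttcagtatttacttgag
IFI27 had matches that begin 108 and 95 bases before the start, one on each strand, BST2 a pair at 130 and 124 that overlap each other, IFI6 3 matches at 156, 115 and 93, and IFIT3 2 at 156 and 122. IFIT3 fell by 1.0 (log2, adjusted p = 0.00295). In all, 34 of the 45 tested interferon genes had a sequence in the promoter table, and 20 of the 34 held the motif (58.8%). It was in 839 of 27305 promoters of the same length (3.07%) and in 236 of 9932 of all genes tested (2.38%). Of the interferon genes with a sequence, 12 of 17 that fell and 8 of 17 that did not pass the test held it. A match is a description of the letters and shows no binding.

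Genes of antigen presentation fell in part. Of 24 tested genes of MHC class I and II and their loading machinery 7 fell and 0 rose, with a median of −0.43, and 16 fell without Vector replicate 3. CD74, the invariant chain that escorts class II molecules, stood at 51.0, 59.5 and 61.5 CPM in Vector, 11.6, 13.2 and 16.6 in the FTO libraries and 9.70, 22.6 and 14.6 in mut-FTO. The construct libraries were below all Vector libraries and overlapped each other. CD74 fell 3.91-fold (adjusted p = 0.000234), with −0.18 between the constructs (95% interval −0.76 to 0.40, log2). HLA-DRA, the alpha chain of the DR heterodimer, fell 2.87-fold from 12.9 to 22.2 CPM in Vector to 6.12 to 6.84 in FTO and 4.33 to 6.45 in mut-FTO. CTSS, the protease that trims the invariant chain, was 29.2 to 43.2 CPM in Vector, 19.9 to 21.0 in FTO and 5.57 to 11.7 in mut-FTO, and unlike CD74 it differed between the constructs (log2 1.15, adjusted p = 0.0348). HLA-DPA1, HLA-DRB1, HLA-F and B2M were the rest of the 7, with log2 changes of −1.88 to −0.72. HLA genes share long stretches of sequence, so counts of single members are uncertain. Antigen-presenting leukocytes also express class II genes. CD68 and CD14, macrophage and monocyte markers, were present at the levels given above, with CD14 highest in mut-FTO. PTPRC, the pan-leukocyte marker, was at 0 to 0.0541 CPM. Their part in the result was not tested. In bulk RNA, fewer cells of a type and less RNA per cell cannot be told apart.

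Cytokines and chemokines moved in both directions. Of 31 tested genes 8 fell and 3 rose (median −0.38), and without Vector replicate 3 the counts were 13 and 7. IL1B, a leaderless cytokine released by inflamed cells, was 399.8, 381 and 446 CPM in Vector, 198, 209 and 242 in the FTO libraries and 44.4, 52.2 and 44.1 in mut-FTO. The 3 groups were apart, in that order. IL1B fell 4.06-fold with the constructs pooled (log2 −2.02, SE 0.13, adjusted p = 2.92e-06), 1.89-fold in FTO and 8.73-fold in mut-FTO. IL24, a member of the IL-10 family made by keratinocytes, followed the same order, at 50.3, 48.7 and 43.1 CPM in Vector, 17.0, 18.5 and 21.6 in the FTO libraries and 4.0, 2.75 and 4.33 in mut-FTO. Its pooled fall was 5.64-fold (adjusted p = 4.52e-06). IL1A, the cytokine stored in keratinocytes and released on damage, stood at 174, 194 and 384 CPM in Vector, 119.9, 135 and 155 in the FTO libraries and 38.8, 27.2 and 24.4 in mut-FTO. Vector replicate 3 was far above the other libraries of IL1A, and the fall of 3.91-fold (adjusted p = 0.00033) became a log2 change of −1.53 without it. IL33, a nuclear alarmin, had 274 counts in the Vector libraries together, 44 in FTO and 0 in mut-FTO, so that it was at least 91.9-fold lower in mut-FTO. CCL5, CCL2, IL1RN and CXCL5 also fell, by 0.78 (IL1RN) to 1.73 (CCL5) on the log2 scale. The 3 that rose, named after their values were seen, were CXCL14 (3.38), CXCL6 (1.12) and the neutrophil chemokine CXCL8 (0.77). NF-kB subunits and feedback targets, often read beside these genes, held 1 rise and 1 fall among 20. Over all genes tested 1.7% rose and 3.39% fell. TNFAIP2, a target of the pathway, was 492 to 879 CPM in Vector, 769 to 889 in FTO and 1646 to 2062 in mut-FTO, and rose by 0.89 (log2) although FTO overlapped Vector. Complement C3 fell by 0.73, a call lost without Vector replicate 2 (adjusted p = 0.0814).

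Extracellular matrix genes moved both ways, with more falls. Of 44 tested 11 fell and 4 rose, with a median of −0.36, and 16 and 5 without Vector replicate 3. Of the falls, FN1 was the largest. COL5A1, a fibrillar collagen chain that sets fibril width, was 31.1, 34.5 and 25.9 CPM in Vector, 10.1, 11.5 and 9.87 in the FTO libraries and 8.43, 10.05 and 14.97 in mut-FTO. The constructs overlapped each other and lay below all Vector libraries. COL5A1 fell 2.82-fold (adjusted p = 0.000465) with a difference of −0.088 between constructs (95% interval −0.57 to 0.40, log2). LAMA3, a chain of the laminin of the epidermal basement membrane, went from 360.4 to 505 CPM in Vector to 243 to 265 in FTO and 161 to 175 in mut-FTO, a pooled fall of 2.06-fold. LAMB1, a chain of other laminins, fell 2.38-fold. The 4 that rose, of which DCN is in the naming rule and the others were named after their values were seen, were the collagen-binding proteoglycan decorin (DCN), the chain COL5A2 (log2 2.31), the crosslinking enzyme LOX (1.45) and matrilin-2, MATN2 (0.72). The type V collagen chains COL5A1 and COL5A2 thus lay on opposite sides of Vector in both constructs.

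The start region of FN1 is printed because FN1 had the lowest p of all genes tested. It is the 250 bases before the annotated start (chr2:215436069-215436318, minus strand, GRCh38.p14, RefSeq), with a cyclic AMP response element, TGACGTCA, in capitals.
FN1: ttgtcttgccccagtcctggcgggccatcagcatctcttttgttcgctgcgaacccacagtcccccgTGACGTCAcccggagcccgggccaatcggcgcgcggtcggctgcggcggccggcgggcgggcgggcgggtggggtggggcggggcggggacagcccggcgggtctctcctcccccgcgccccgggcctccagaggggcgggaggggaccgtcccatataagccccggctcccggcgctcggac
The match begins 183 bases before the start. The same letters were in 482 of 27305 promoters (1.77%) and in 6 of 313 with a sequence among the genes that fell (1.92%). They were in 0 of 158 among the genes that rose and in 284 of 9932 among all genes tested (2.86%).

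Proteases that cut matrix, and their inhibitors, fell as often as any group but the interferon response: 10 of 26 tested were lower and 1 higher, with a median of −0.58, and 13 and 3 without Vector replicate 3. TIMP2, an inhibitor of metalloproteinases, stood at 18.9, 17.0 and 18.5 CPM in Vector, 4.70, 6.92 and 6.70 in the FTO libraries and 1.89, 2.72 and 4.13 in mut-FTO. The groups did not overlap. TIMP2 fell 4.30-fold (adjusted p = 0.000162). MMP9, a gelatinase, went from 2.48 to 3.39 CPM in Vector to 0.319 to 0.563 in FTO and 0.462 to 0.649 in mut-FTO, a fall of 5.99-fold, and was one of the few genes here with a larger fitted fall in FTO (6.81-fold) than in mut-FTO (5.26-fold). That difference did not pass the test (adjusted p = 0.766; 95% interval −1.25 to 0.50, log2). SERPINE2, which blocks thrombin and urokinase, fell 2.03-fold, and further in mut-FTO than in FTO (adjusted p between constructs = 0.022). The 1 rise was the collagenase MMP13 (log2 1.80), named after its value was seen. Integrins and focal adhesion genes, the receptors for this matrix, held 2 falls and 0 rises among 30, with a median of −0.16. Over all genes tested 3.39% fell and 1.7% rose. Without Vector replicate 3 the list held 5 falls and 0 rises. ITGB3, a chain of the vitronectin receptor, fell 4.11-fold from 9.19 to 17.6 CPM in Vector to 4.72 to 5.55 in FTO and 1.62 to 2.04 in mut-FTO. ITGA5, the alpha chain of the fibronectin receptor, fell 2.09-fold from 246 to 334 to 157 to 188 and 86.7 to 137 CPM.

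Some keratinocyte differentiation genes rose. Of 41 tested 14 rose and 0 fell (DESeq2 gave 20 and 0, and an unadjusted p below 0.05 gave 24 and 0), with a median log2 change of 0.99, and without Vector replicate 3 17 rose and 1 fell. The median was 0.59 in FTO and 1.41 in mut-FTO, and 12 of the 41 differed between constructs. SPRR2E, a small proline-rich precursor of the cornified envelope, was 6.40, 5.76 and 8.71 CPM in Vector, 20.6, 23.3 and 25.4 in the FTO libraries and 83.8, 86.1 and 93.4 in mut-FTO. The 3 groups were apart, as for KRT1. SPRR2E rose 6.47-fold (log2 2.69, SE 0.18, adjusted p = 5.21e-06). KRT4, a keratin of internal stratified epithelia, was 17.0, 16.2 and 11.3 CPM in Vector, 58.4, 49.0 and 48.6 in the FTO libraries and 99.2, 107 and 114 in mut-FTO. It rose 5.02-fold, with 3.51-fold in FTO and 7.19-fold in mut-FTO. SPRR2D rose 3.87-fold from 4.70 to 5.27 CPM in Vector to 10.8 to 11.99 in FTO and 29.8 to 33.7 in mut-FTO. The others that rose were SPRR2A, SPRR2F, SPRR2B, SPRR1A, SPRR1B, KRT13, SBSN, TGM5, GRHL3 and CASP14, by 1.03 (GRHL3) to 2.34 (SBSN) on the log2 scale. SPRR2 genes are near-identical neighbours, so reads may have been shared among them and their rises are not separate evidence.

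Start regions of 2 of these genes, chosen after their values were seen, show a sequence of the AP-1 type, TGANTCA, in capitals. They are the 250 bases before the start of SPRR1B (chr1:153030953-153031202, plus strand) and SBSN (chr19:35528312-35528561, minus strand), from RefSeq on GRCh38.p14.
SPRR1B: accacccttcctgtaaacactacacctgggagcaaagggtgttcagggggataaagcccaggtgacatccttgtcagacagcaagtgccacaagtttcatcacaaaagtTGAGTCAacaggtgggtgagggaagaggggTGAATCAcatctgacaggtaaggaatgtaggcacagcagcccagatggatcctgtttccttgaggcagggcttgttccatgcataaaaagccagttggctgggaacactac
SBSN: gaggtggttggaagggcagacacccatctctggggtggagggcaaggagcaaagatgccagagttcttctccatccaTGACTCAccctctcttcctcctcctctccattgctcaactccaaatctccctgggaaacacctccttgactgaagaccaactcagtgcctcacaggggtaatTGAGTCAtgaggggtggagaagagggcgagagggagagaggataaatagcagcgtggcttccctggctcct
In SPRR1B the matches begin 141 and 111 bases before the start, and in SBSN 173 and 71. Of the 14 differentiation genes that rose 10 had a promoter sequence and 6 of these held the motif, against 1801 of 27305 promoters (6.60%). The related genes SPRR1A, SPRR1B, SPRR2A and SPRR2F were among the 6 and are not separate evidence. Over all calls the motif was in 11 of 158 promoters of genes that rose (6.96%) and 23 of 313 of those that fell (7.35%). Among all genes tested that had a promoter sequence it was in 411 of 9932 (4.14%). Here too a match shows no binding. SPRR1B rose by 1.81 and SBSN by 2.34 on the log2 scale, with adjusted p of 0.00598 and 0.002.

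Of 15 basal, stress and simple-epithelial keratins 2 rose and 0 fell, and without Vector replicate 3 3 rose and 4 fell. KRT16, a keratin of activated epidermis, was 48.0, 66.1 and 26.0 CPM in Vector, 90.5, 60.0 and 87.8 in the FTO libraries and 176, 193 and 192 in mut-FTO. FTO overlapped Vector, and the rise of 2.61-fold came with a change of 0.77 in FTO and 2.0 in mut-FTO (log2). KRT15, a basal keratin, rose 1.82-fold from 656 to 958 CPM to 1027 to 1175 in FTO and 1782 to 2360.0 in mut-FTO. KRT14, a main basal keratin, was at 3914 to 5504 CPM in Vector, 5274 to 5984 in FTO and 8308 to 10385 in mut-FTO, and did not pass the pooled test (adjusted p = 0.0689). It was called without Vector replicate 3 (adjusted p = 0.0308), by DESeq2 and by limma-voom. The skin proteases and their inhibitors held 4 rises and 0 falls among 26 tested, with a median of 0.17. Without Vector replicate 3 they held 4 rises and 2 falls, with a median of 0.0019. SPINK6, an inhibitor of kallikreins, had 0 counts in the Vector libraries, 51 in FTO and 716 in mut-FTO. It was at least 15.9-fold higher in FTO and at least 237-fold higher in mut-FTO than 3 counts in Vector would be. TMPRSS11E, a membrane serine protease of differentiating keratinocytes, was 0.760, 1.54 and 1.18 CPM in Vector, 5.87, 5.50 and 4.72 in the FTO libraries and 12.4, 11.03 and 10.9 in mut-FTO. The groups were apart, and TMPRSS11E rose 6.72-fold (adjusted p = 8.04e-05). Its relative TMPRSS11D rose 2.76-fold, and PI3, the elastase inhibitor elafin, 2.53-fold from 317 to 487 CPM to 523 to 721 in FTO and 1161 to 1977 in mut-FTO. Of 28 desmosome and tight junction genes 1 rose and 0 fell, beside 1.7% and 3.39% of all genes tested. Without Vector replicate 3, 1 rose and 2 fell. The 1 rise with all libraries was CLDN8, a barrier claudin, at 0.526, 1.01 and 1.61 CPM in Vector, 4.60, 5.53 and 8.76 in the FTO libraries and 14.5, 8.73 and 8.55 in mut-FTO (log2 2.96, SE 0.38, adjusted p = 0.000635).

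**Figure D3:**
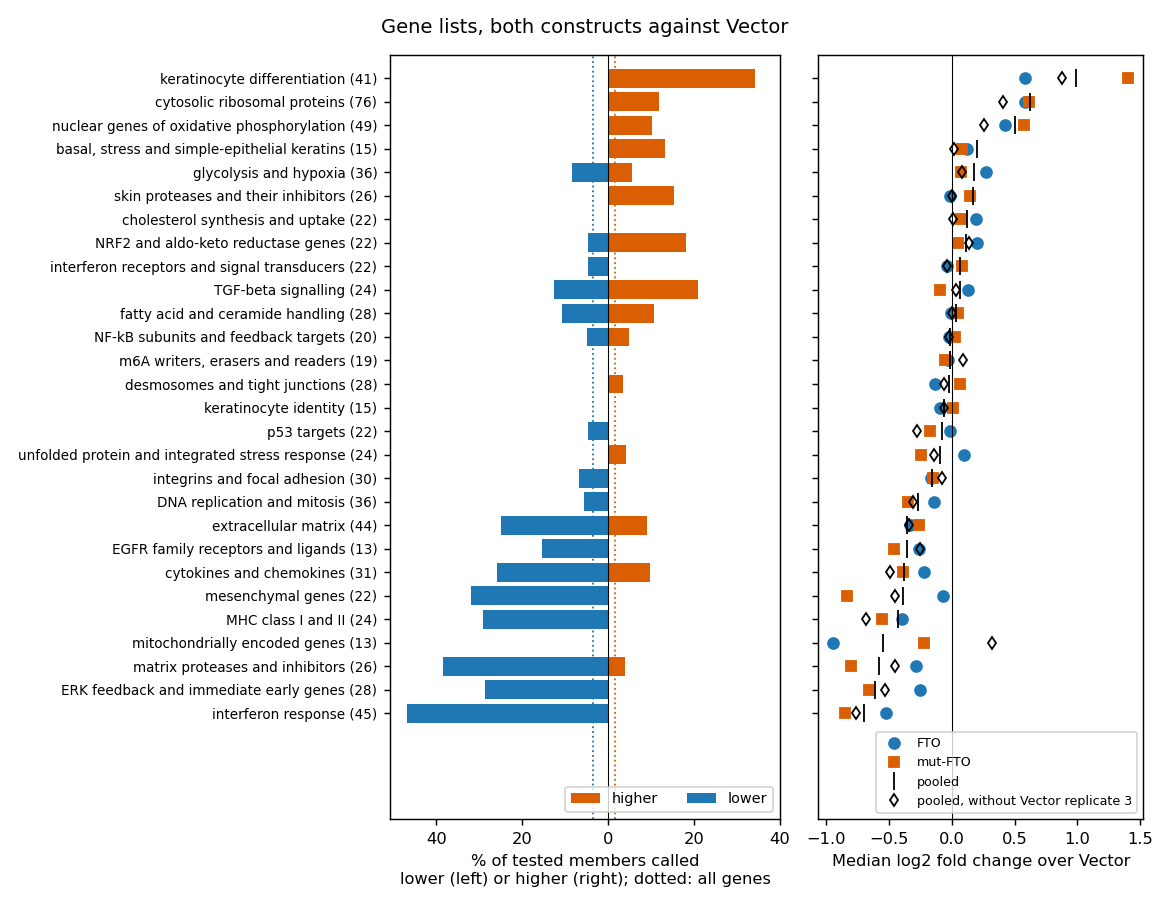
Left, the percent of the tested members of each list (number in brackets) that fell or rose with the constructs pooled, with dotted lines at the 3.39% and 1.7% of all genes. Right, the median log2 fold change of each list over Vector in FTO, in mut-FTO, pooled, and pooled without Vector replicate 3; the interferon response is at −0.70 and keratinocyte differentiation at 0.99, and for mitochondrially encoded genes the median is −0.55 with and 0.32 without that library.

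Mesenchymal genes, a list read in studies of epithelial plasticity, held 7 falls and 0 rises among 22, with a median of −0.39 pooled, −0.067 in FTO and −0.84 in mut-FTO. ACTA2, smooth muscle actin, was 5.08, 5.48 and 5.58 CPM in Vector, 2.13, 2.20 and 2.75 in the FTO libraries and 0.676, 1.39 and 1.36 in mut-FTO. Its groups did not overlap and the fall was 3.28-fold (adjusted p = 0.00139). FOXC2, a forkhead factor, fell 4.02-fold, from 2.34 to 2.57 CPM to 0.345 to 0.715 in FTO and 0.270 to 0.867 in mut-FTO, with overlapping constructs. TPM1, a tropomyosin, fell in the pooled test by 1.57-fold, but its FTO libraries were at 104 to 109.9 CPM beside 111 to 140.1 in Vector, and its change in FTO was −0.22 (log2, adjusted p = 0.575). CDH2, N-cadherin, fell 2.12-fold with an FTO range of 5.61 to 10.4 CPM that overlapped the Vector range of 9.95 to 17.3.

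ERK activity is read through genes such as ETV4, ETV5, DUSP6 and PHLDA1, which the pathway induces and which in part dampen it. Of 28 ERK feedback and immediate early genes 8 fell and 0 rose, with a median of −0.62 pooled, −0.25 in FTO and −0.66 in mut-FTO. Without Vector replicate 3, 10 fell and 0 rose. ETV5 was 11.4, 9.42 and 11.03 CPM in Vector, 6.59, 6.28 and 5.12 in the FTO libraries and 1.03, 1.15 and 2.11 in mut-FTO. The groups were apart, and the fall was 3.62-fold (log2 −1.86, SE 0.22, adjusted p = 0.000397). ETV4 fell 2.18-fold, and PHLDA1 2.30-fold with Vector replicate 3 at the top of its range of 423 to 786 CPM (log2 −0.87 without it). With the constructs as 1 group the calls were lost for ETV5 (adjusted p = 0.157), ETV4 (0.0741), PHLDA1 (0.0859), HBEGF (0.0891) and NRG1 (0.361). CCND1, cyclin D1, was 149, 164 and 157 CPM in Vector, 93.1, 102 and 102 in the FTO libraries and 68.7, 72.9 and 79.9 in mut-FTO. It fell 1.83-fold, with the constructs alike to within 2-fold (95% interval of the difference 0.12 to 0.72, log2). DUSP6, FOSL1, FOSB and DUSP4 were the others that fell. Of 13 EGFR family receptors and ligands 2 fell, both ligands. HBEGF fell 1.69-fold from 294 to 342 CPM to 226 to 253 in FTO and 132 to 177 in mut-FTO. NRG1 fell 1.51-fold, but stood at 153 to 171 CPM in FTO, overlapping the Vector range of 165 to 183, and at 80.1 to 82.1 in mut-FTO.

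The TGF-beta list, of 24 tested, held 5 rises and 3 falls. BMP7, a ligand of the BMP branch, was 15.6, 13.7 and 11.6 CPM in Vector, 32.9, 33.0 and 28.8 in the FTO libraries and 51.6, 52.4 and 58.7 in mut-FTO. The groups were apart, and BMP7 rose 3.03-fold (adjusted p = 9.25e-05). ID2, a target of BMP signalling that holds back helix-loop-helix factors, rose 1.92-fold from 24.2 to 28.9 CPM to 43.1 to 51.6 in FTO and 48.4 to 63.0 in mut-FTO. ID3 (1.08) and the inhibitory SMAD6 (0.95), both targets of the same branch, rose as well (log2). LRRC32, which anchors latent TGF-beta at the cell surface, was 0.0584, 0.0559 and 0.169 CPM in Vector, 0.425, 0.724 and 0.343 in the FTO libraries and 1.30, 3.36 and 4.07 in mut-FTO. It rose by 3.62 on the log2 scale (4.30 without Vector replicate 3), on 10, 55 and 288 counts in Vector, FTO and mut-FTO. The call of LRRC32 was lost by limma-voom (adjusted p = 0.0866) and with the constructs as 1 group (0.0531). LTBP2, a microfibril protein related to the binders of latent TGF-beta, fell 2.05-fold, with a difference of 0.13 between constructs (95% interval −0.26 to 0.52, log2). LTBP1 (−1.30) and the stress cytokine GDF15 fell too. GDF15 was 3.80, 4.14 and 2.96 CPM in Vector, 1.06, 1.34 and 1.86 in the FTO libraries and 0.108, 0.645 and 0.0578 in mut-FTO, a pooled log2 change of −2.57, or −3.37 without mut-FTO replicate 2. It was also the 1 fall among 22 p53 targets, of which 0 rose, beside 3.39% and 1.7% of all genes tested. Without Vector replicate 3, 3 p53 targets fell and 0 rose.

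Lipid and redox genes gave mixed results. Of 28 genes of fatty acid and ceramide handling 3 rose and 3 fell. FABP4, a fatty acid chaperone known from adipocytes and macrophages, was 9.96, 11.4 and 23.8 CPM in Vector, 59.0, 67.6 and 89.5 in the FTO libraries and 42.6, 39.7 and 33.7 in mut-FTO. Here FTO was the highest group, and all 3 were apart. FABP4 rose 3.50-fold (log2 1.81, SE 0.27, adjusted p = 0.00211), 4.78-fold in FTO and 2.57-fold in mut-FTO. FABP5, the epidermal form, rose 2.56-fold from 15.5 to 31.4 CPM to 41.0 to 48.8 in FTO and 61.4 to 73.2 in mut-FTO. ALOX12B, a lipoxygenase of the skin barrier, rose by 2.08 (log2), and ACSL5, an acyl-CoA synthetase, fell by 1.79. PLIN2 and CERS3 were the other falls. Of 22 NRF2 and aldo-keto reductase genes 4 rose and 1 fell. AKR1B10 was 1.55, 3.30 and 1.78 CPM in Vector, 6.59, 5.26 and 9.87 in the FTO libraries and 20.03, 24.1 and 23.5 in mut-FTO. It rose 5.77-fold (adjusted p = 0.000301) with the groups apart. AKR1C3, ALDH3A1 and GCLC were the other rises, and haem oxygenase, HMOX1, fell 1.84-fold from 11.8 to 15.4 CPM to 8.05 to 8.98 in FTO and 5.40 to 7.03 in mut-FTO. The call of HMOX1 was lost without Vector replicate 2 (adjusted p = 0.0625), that of AKR1C3 without FTO replicate 3, mut-FTO replicate 1 or mut-FTO replicate 3 (up to 0.0558), and that of ALDH3A1 without any 1 of the FTO libraries, mut-FTO replicate 2 or mut-FTO replicate 3 (up to 0.0833). Of 22 genes of cholesterol synthesis and uptake 0 rose and 0 fell by edgeR, DESeq2 and limma-voom (0 higher and 1 lower at edgeR's unadjusted p below 0.05), with a median of 0.12. Of 36 glycolysis and hypoxia genes 2 rose and 3 fell. SLC2A3, a glucose transporter, was 38.5, 41.5 and 42.2 CPM in Vector, 20.6, 24.0 and 22.3 in the FTO libraries and 6.11, 8.32 and 9.62 in mut-FTO. It fell 3.05-fold with the groups apart. VEGFA fell 1.62-fold and the carbonic anhydrase CA12 1.80-fold, while MXI1 rose 1.67-fold and ANKRD37 1.64-fold. The calls of CA12 (adjusted p = 0.0824) and MXI1 (0.0667) were lost without Vector replicate 2.

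Growth and housekeeping lists had values that depended on the libraries. All 76 cytosolic ribosomal protein genes had a positive pooled change, with a median of 0.62. Of these 9 passed edgeR's test, 32 passed by DESeq2 and 16 by limma-voom. Over all genes tested 1.7% rose by edgeR. At edgeR's unadjusted p below 0.05, 63 of the 76 were higher. Without Vector replicate 3 the median was 0.41 and 23 passed, and without Vector replicate 3 and mut-FTO replicate 2 it was 0.40 and 43 passed. RPS6, of the small subunit, was 832, 729.7 and 743 CPM in Vector, 1129.5, 1073 and 1236 in the FTO libraries and 1192, 1171 and 1069.6 in mut-FTO. The construct groups overlapped and both were above Vector. RPS6 rose 1.49-fold (adjusted p = 0.025), with 0.0027 between constructs (95% interval −0.32 to 0.33, log2), but lost its call without Vector replicate 2, any 1 of the FTO libraries or mut-FTO replicate 3 (adjusted p up to 0.135). RPL6 and RPL7 rose 1.46-fold and 1.72-fold and were lost without these or mut-FTO replicate 1. RPS4X rose 1.46-fold. Of the 9 fits with a library left out, it kept its call only in the fit without Vector replicate 3. Ribosomal protein genes have many processed copies, so their counts are uncertain. Nuclear genes of oxidative phosphorylation were positive in 49 of 49, with a median of 0.51, or 0.26 without Vector replicate 3, and 5 rose. They were ATP5O (1.64-fold), COX6C, COX7B, NDUFA1 and UQCRC2, of which UQCRC2 was named after its value was seen. ATP5O lost its call without Vector replicate 2 (adjusted p = 0.0613), and COX6C, COX7B and NDUFA1 without that library, any 1 of the FTO libraries, mut-FTO replicate 1 or mut-FTO replicate 2, NDUFA1 also without mut-FTO replicate 3. The 13 mitochondrially encoded genes had 0 calls by edgeR, DESeq2 and limma-voom (0 at an unadjusted p below 0.05), and their median went from −0.55 to 0.32 without Vector replicate 3. The gene of complex I MT-ND4 was at 4186, 4077 and 18132 CPM in Vector, 3842, 4304 and 3645 in the FTO libraries and 5673, 8861 and 6004 in mut-FTO. That library was above each of the others. The raised mitochondrial share of Vector replicate 3 moved with these lists, and its part in them was not tested beyond leaving the library out.

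Of 36 DNA replication and mitosis genes 2 fell and 0 rose (median −0.27), beside 3.39% and 1.7% of all genes tested. Without Vector replicate 3, 7 of the list fell. RRM2, the small subunit of ribonucleotide reductase, fell 1.75-fold from 21.1 to 22.3 CPM to 14.3 to 17.5 in FTO and 8.70 to 10.9 in mut-FTO. MKI67, the proliferation marker, was 44.3, 48.0 and 92.5 CPM in Vector, 34.1, 33.6 and 31.5 in the FTO libraries and 35.5, 39.3 and 31.2 in mut-FTO. The third Vector library was far above the rest, and the fall of 1.80-fold (log2 −0.85, adjusted p = 0.0343) became a log2 change of −0.45 without it. The call was lost without any 1 of the 6 construct libraries (adjusted p up to 0.0928). It was also lost by limma-voom (0.0572), with the constructs as 1 group (0.0561) and with a replicate block (0.075). Of 24 genes of the unfolded protein and integrated stress response 1 rose, asparagine synthetase, ASNS (1.5-fold, adjusted p = 0.0278), and this call held only in the fits without Vector replicate 3 or mut-FTO replicate 2 of the 9 with a library left out. Without Vector replicate 3, 3 of the 24 genes rose and 6 fell. The m6A writers, erasers and readers, FTO left out, held 0 calls among 19 by edgeR, DESeq2 and limma-voom (0 higher and 2 lower at edgeR's unadjusted p below 0.05), with a median of −0.015. Lowest in p was IGF2BP3, a reader, at 18.1, 25.5 and 54.8 CPM in Vector, 18.2, 20.2 and 19.1 in the FTO libraries and 19.5, 21.2 and 16.4 in mut-FTO (adjusted p = 0.13). The same Vector library was set apart, and the log2 change of −0.78 was −0.20 without it.

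Called genes that did not overlap Vector were taken if their mean reached 1 CPM in Vector or over the 2 construct groups together. The largest changes shared by both constructs were looked for among them, ranked by the smaller of the 2 construct changes. Among rises these were SPINK6, DCN, LSP1, ABCA4, IGFBP2, KRT1, CLDN8, LRRC32, DLX5, TMPRSS11E, PPP1R3C and CCDC69. Several were close to absent in Vector. DCN, decorin, had 4 counts over the Vector libraries, all in replicate 2, 85 in FTO and 223 in mut-FTO. In CPM it was 0, 0.112 and 0, 0.425, 0.724 and 1.2 and 3.14, 1.56 and 1.76, with the construct groups apart. DCN rose by 4.98 (log2, SE 0.82, adjusted p = 0.00365), and by 8.51 in the fit without Vector replicate 2, which is set against a group at 0 and is no bound. DCN is also a fibroblast marker. THY1, PRRX1 and DPT, other markers of that cell, were at 0 in all libraries, while COL1A1 was at 3.21 to 8.72 CPM, FAP at 0.611 to 4.46, PDGFRA at 0.730 to 1.48 and TWIST2 at 0.310 to 1.54. Their part in the result was not tested. LSP1, a leukocyte actin-binding protein, was 0.146, 0 and 0 CPM in Vector, 1.91, 2.28 and 2.03 in the FTO libraries and 0.865, 0.577 and 0.318 in mut-FTO. FTO was the highest group for LSP1, unlike most genes here, although the constructs did not differ by the test (adjusted p = 0.202). It rose by 4.43 (log2, SE 0.81, adjusted p = 0.00686) on 5 Vector counts, all in replicate 1, and by 8.29 without that library, against a group at 0.

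ABCA4, a lipid flippase known from photoreceptors, was 0.0877, 0 and 0.113 CPM in Vector, 0.717, 0.751 and 0.916 in the FTO libraries and 5.70, 6.65 and 6.04 in mut-FTO. The groups were apart, and the pooled log2 rise was 4.98 (adjusted p = 0.000106). IGFBP2, which binds insulin-like growth factors, had 8, 65 and 666 counts in Vector, FTO and mut-FTO. Its Vector counts were all in replicate 1. IGFBP2 rose by 4.63 with the constructs pooled (adjusted p = 0.0016), by 2.90 in FTO (adjusted p = 0.123) and 6.36 in mut-FTO, and by 9.12 without Vector replicate 1, again against 0. DLX5, a homeobox factor, was 0.175, 0.168 and 0.451 CPM in Vector, 0.770, 0.912 and 2.09 in the FTO libraries and 3.24, 4.92 and 5.06 in mut-FTO. Vector replicate 3 was the highest of its group, and the rise of 3.13 (log2, adjusted p = 0.00212) was 3.73 without it. CCDC69, a coiled-coil protein of the central spindle, was measured at a higher level, 6.69, 9.62 and 6.23 CPM in Vector, 37.1, 31.3 and 33.7 in the FTO libraries and 65.8, 76.0 and 79.4 in mut-FTO. It rose 6.66-fold (log2 2.74, SE 0.19, adjusted p = 6.11e-06). PPP1R3C, which targets a phosphatase to glycogen, was 0.409, 0.224 and 0.141 CPM in Vector, 1.43, 1.15 and 1.83 in the FTO libraries and 1.65, 0.543 and 1.36 in mut-FTO. Its rise of 5.09-fold (adjusted p = 0.0184) was lost without Vector replicate 2 (adjusted p = 0.0867) or FTO replicate 3 (0.0567), and by limma-voom (0.0575).

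Among falls the same ranking gave IFI27, BST2, IFI6, FN1, F5, SPP1, IL33, SH2D2A, ATP8A2, CHST2, NFATC1 and MMP9. F5, coagulation factor V, was 1.61, 1.43 and 2.31 CPM in Vector, 0.452, 0.215 and 0 in FTO and 0 in each mut-FTO library. It was at least 63.1-fold lower in mut-FTO, on 188 Vector counts. SH2D2A, a T cell adaptor, was likewise at 0 in mut-FTO, with 1.40, 1.09 and 1.30 CPM in Vector and 0.292, 0.295 and 0.0572 in FTO, and so at least 44.6-fold lower in mut-FTO. SPP1, osteopontin, was 0.701, 1.31 and 2.37 CPM in Vector, 0.213, 0.107 and 0.343 in the FTO libraries and 0.0541, 0.204 and 0 in mut-FTO. SPP1 fell by 3.41 (log2, SE 0.66, adjusted p = 0.00943), and by 4.13 without mut-FTO replicate 2. ATP8A2, a phospholipid flippase, fell 9.16-fold from 1.16 to 1.99 CPM to 0.106 to 0.601 in FTO and 0.0679 to 0.135 in mut-FTO. CHST2, a sulfotransferase, fell 7.77-fold from 1.10 to 2.52 CPM, and its call was lost without Vector replicate 2 (adjusted p = 0.0972). NFATC1, a calcineurin-dependent factor, was 1.2, 2.74 and 1.69 CPM in Vector, 0.292, 0.402 and 0.315 in the FTO libraries and 0.243, 0.407 and 0.289 in mut-FTO. The constructs overlapped in NFATC1, which fell 5.75-fold (log2 −2.52, SE 0.39, adjusted p = 0.0024), with a difference of 0.11 between constructs and a 95% interval of −1.0 to 1.23 (log2), wider than 2-fold.

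Genes on which the constructs were alike to within 2-fold had smaller pooled changes, which follows in part from how the class is defined. It leaves out genes of few counts, whose intervals are wide, and genes whose large changes differ in size. The largest rises of that kind, beside FTO, were RTN4RL1, DIO2, EAF2, FOXQ1 and ID4, and the largest falls MX1, CD74, HLA-DRB5, ZNF114, SLCO2A1 and SIRPA. RTN4RL1, a relative of the Nogo receptor, was 0.672, 0.923 and 0.818 CPM in Vector, 2.84, 3.27 and 2.72 in the FTO libraries and 3.62, 4.11 and 4.28 in mut-FTO. The constructs were close and well above Vector, with a rise of 4.25-fold (log2 2.09, SE 0.25, adjusted p = 0.00036) and a difference of −0.44 (95% interval −0.99 to 0.10, log2). DIO2, which activates thyroid hormone, was 0.380, 0.699 and 1.52 CPM in Vector, 2.47, 3.35 and 3.52 in the FTO libraries and 3.30, 3.87 and 2.86 in mut-FTO. The Vector libraries of DIO2 were the most spread. Its rise was 1.89 (log2, adjusted p = 0.0129), 2.55 without Vector replicate 3, and not past the test without Vector replicate 2 (adjusted p = 0.0707). EAF2, an elongation cofactor, rose 2.61-fold, the forkhead factor FOXQ1 2.55-fold and ID4 2.55-fold. ID4, of the same family as ID2 and ID3 above, was 5.55, 8.0 and 7.61 CPM in Vector, 16.9, 14.0 and 17.8 in the FTO libraries and 23.2, 16.0 and 20.6 in mut-FTO.

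SLCO2A1, a prostaglandin transporter, was 12.01, 12.9 and 11.5 CPM in Vector, 2.87, 4.59 and 3.35 in the FTO libraries and 3.65, 3.80 and 3.35 in mut-FTO. The fall was 3.37-fold in FTO and 3.37-fold in mut-FTO (pooled adjusted p = 0.000161), and the 95% interval of the difference was −0.49 to 0.49 (log2). SIRPA, the inhibitory receptor for CD47, was 12.1, 13.8 and 16.3 CPM in Vector, 4.17, 5.45 and 5.81 in the FTO libraries and 3.16, 6.04 and 4.45 in mut-FTO. SIRPA fell 2.92-fold (adjusted p = 0.00106), with overlapping constructs. ZNF114, a zinc finger gene, fell 3.57-fold from 3.62 to 5.92 CPM to 0.939 to 1.57 in FTO and 0.809 to 2.05 in mut-FTO. HLA-DRB5 fell 3.64-fold, with the caution on HLA genes given above.

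Opposite signs of the fitted changes were found in 3903 of 13713 genes (28.5%), most of them with changes near 0. Of the 319 genes called between FTO and mut-FTO, 94 had opposite signs (0.685% of the genes tested), and these were set aside, since no pooled value describes them. The 3 pooled calls with opposite signs are among them. The number set aside was 681 without Vector replicate 3, and 12 to 31 with any 1 FTO library, mut-FTO replicate 2 or mut-FTO replicate 3 left out. In 35 of the 94 FTO was above Vector and mut-FTO below, and in 59 the reverse. In 62 the mut-FTO change passed the test against Vector. The FTO change passed in 0 by edgeR (22 at an unadjusted p below 0.05), in 3 by DESeq2 and in 1 by limma-voom. Both passed in 0 by edgeR (15 at an unadjusted p below 0.05), in 2 by DESeq2 and in 0 by limma-voom. The comparisons with Vector share its 3 libraries.

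Set-aside genes were ranked by the smaller of their 2 construct changes, with assembled loci left out and a floor of 1 CPM on the mean of the highest group. With FTO above and mut-FTO below Vector the first were GPC6, CPPED1, TAGLN, YOD1, F3 and AMIGO2. SLC1A6, just under the floor at 0.947 CPM and picked after its values were seen, had larger changes of 2.10 in FTO and −3.26 in mut-FTO (log2). GPC6, a membrane-anchored proteoglycan, was 8.74, 9.31 and 13.2 CPM in Vector, 16.9, 18.9 and 17.7 in the FTO libraries and 6.76, 4.45 and 6.13 in mut-FTO. The groups did not overlap, with Vector in the middle. FTO exceeded mut-FTO 3.08-fold (adjusted p = 0.00305), while the pooled change was −0.037. CPPED1, a phosphatase, was 1.17, 2.10 and 1.21 CPM in Vector, 2.52, 2.76 and 2.35 in the FTO libraries and 0.162, 0 and 0.0578 in mut-FTO. The groups did not overlap, with a change of 0.77 in FTO (log2, adjusted p = 0.534) and −4.2 in mut-FTO (adjusted p = 0.00117). The pooled call (−1.72, adjusted p = 0.0436) was lost without Vector replicate 2, any 1 of the FTO libraries, mut-FTO replicate 2 or mut-FTO replicate 3 (up to 0.202), and the value was −2.34 without mut-FTO replicate 1. That call was also lost by limma-voom (0.0731), with the constructs as 1 group (0.956) and with a replicate block (0.0814). TAGLN, transgelin, an actin-binding protein, was 25.3, 17.6 and 10.9 CPM in Vector, 32.7, 28.6 and 30.4 in the FTO libraries and 13.2, 11.4 and 7.69 in mut-FTO, with Vector overlapping mut-FTO. F3, tissue factor, which starts coagulation, was 338, 363 and 473 CPM in Vector, 469.7, 558 and 519.9 in the FTO libraries and 287, 256 and 232 in mut-FTO. FTO and Vector overlapped only through Vector replicate 3. THBS1, thrombospondin-1, and SERPINB2, an inhibitor of urokinase, were the other pooled calls of this kind. THBS1 was 214, 205 and 176 CPM in Vector, 207, 249 and 192 in the FTO libraries and 72.1, 53 and 55.6 in mut-FTO, a change of 0.12 in FTO and −1.72 in mut-FTO (log2). SERPINB2 showed the same pattern, with 0.034 and −1.29. FTO overlapped Vector in both genes, and the pooled call of SERPINB2 was lost without FTO replicate 1 (adjusted p = 0.0571).

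With FTO below and mut-FTO above Vector the first by the same ranking were PCDHGA6, ABCG1, TNS1, STAT5A, BCL2L10 and VANGL2. FLNC, likewise under the floor (0.924 CPM) and picked after its values were seen, had changes of −2.51 and 2.40. VANGL2, a planar cell polarity protein, was 6.98, 7.83 and 9.19 CPM in Vector, 3.67, 4.72 and 3.86 in the FTO libraries and 11.7, 14.1 and 15.4 in mut-FTO. Its 3 groups did not overlap. VANGL2 was 3.36-fold lower in FTO than in mut-FTO (adjusted p = 0.00111), with −0.97 in FTO (adjusted p = 0.0603) and 0.78 in mut-FTO (adjusted p = 0.0372) against Vector. STAT5A, a cytokine-activated transcription factor, was 4.56, 5.12 and 3.07 CPM in Vector, 2.66, 2.82 and 1.80 in the FTO libraries and 5.81, 11.8 and 8.35 in mut-FTO. It was 3.56-fold lower in FTO than in mut-FTO (adjusted p = 0.0102), again with Vector between. BCL2L10, a regulator of cell death, went from 0.691 to 0.832 CPM in FTO through 1.2 to 1.46 in Vector to 2.43 to 3.56 in mut-FTO. ABCG1, a cholesterol exporter, and TNS1, a focal adhesion protein, were higher in mut-FTO (1.62 to 3.40 and 1.18 to 2.35 CPM), while their FTO and Vector libraries overlapped. PCDHGA6, one of a cluster of protocadherins with shared exons, is uncertain for that reason.

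**Figure D4:**
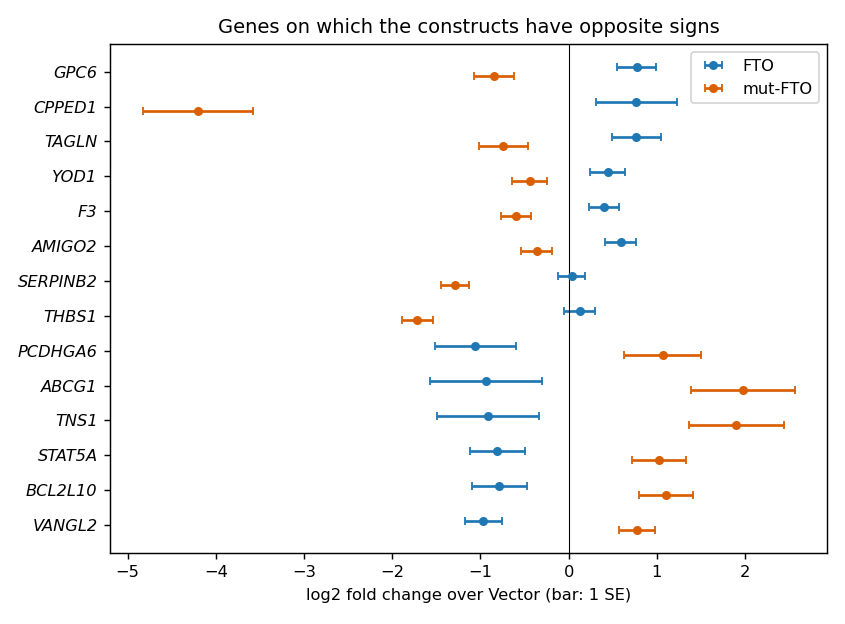
The log2 fold change over Vector (x axis, bars of 1 SE) in FTO and in mut-FTO for 14 genes on which the constructs had opposite signs. The top 8 genes have FTO above 0 and mut-FTO below, the bottom 6 the reverse, and for SERPINB2 and THBS1 the FTO point lies within about 1 SE of 0.

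By name, the other set-aside genes with FTO above Vector were ADA, C12orf75, CLEC10A, CLU, CYR61, DACT1, DMBX1, DUSP5, ETS1, FBXO32, FOLR3, HAS2, KLF6, LIPA, MMP12, PPP1R3B, PRDX4, RBM3, RHOB, SLC1A6, SPOCD1, STBD1, TMSB4X and UAP1. CLEC10A had 69 counts in FTO and 0 in both Vector and mut-FTO, so its sign in mut-FTO is not a measured one. Those with FTO below Vector were ABHD4, ALDH3B2, ANO1, ATF5, ATP8B2, BAHCC1, BCAM, BICDL1, CDKN2B, DLX3, EEF1A2, EPHB3, ESPN, FAM102A, FLNC, FOXN1, GCHFR, GGT1, HIPK2, HOXA2, HOXC6, HR, HSPB8, IGSF9, IL17RE, KLK10, LRRC4, LTB4R, MEFV, MN1, MTSS1, MYH10, NECTIN4, NEFL, NGFR, NOTCH3, OGDH, OLFM2, OXA1L, PID1, PITPNM3, RAPGEFL1, RASSF5, SH2D3C, SLC7A8, SOX2, SRGAP3, TBKBP1, TEN1-CDK3, TJP3 and TSPAN7. The remaining 5 were assembled loci. Among those named are DLX3 (log2 −0.28 in FTO, 1.45 in mut-FTO) and FOXN1 (−0.46, 2.25), transcription factors known from skin and hair, picked out after their values were seen, as are the next 2 genes. HAS2, a hyaluronan synthase (0.27 and −1.57), and CYR61, a matricellular protein (0.56 and −0.36), were on the other side.

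Single libraries moved the counts. With each of the 9 libraries left out in turn, 124 to 554 genes rose and 280 to 884 fell, and 339 of the 698 pooled calls held in all 9 fits. The highest counts came without Vector replicate 3 (554 and 884, with 653 of the 698 kept) and the lowest without Vector replicate 2 (124 and 280). Leaving out an FTO library gave 127 to 141 rises and 291 to 309 falls. FN1, IFI27, BST2, IFI6, KRT1 and FTO passed the test in each of the 9 fits, with highest adjusted p of 1.75e-05, 0.00253, 0.00058, 0.000129, 4.93e-05 and 0.0033. With the constructs as 1 group, which puts their difference into the spread, the call of IFI6 was lost (adjusted p = 0.0769), as were those of SPINK6 (0.129), IGFBP2 (0.0981), F5 (0.0561), IL33 (0.0582), IL1B (0.211), IL24 (0.132) and IL1A (0.268), among others.

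**Figure D5:**
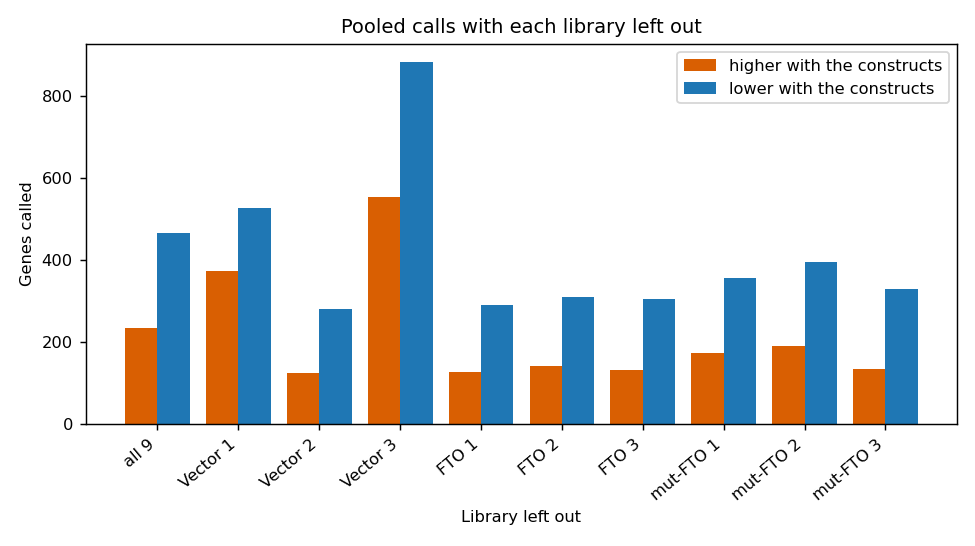
Number of genes higher (orange) and lower (blue) with the constructs pooled, with all 9 libraries and with each library left out in turn. The bars run from 124 higher and 280 lower without Vector replicate 2 to 554 and 884 without Vector replicate 3, against 233 and 465 with all 9.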

How the data were processed

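RNA of 9 HaCaT libraries (3 Vector, 3 FTO, 3 mut-FTO) was deposited by the authors as raw counts per gene, not normalised. The submitters' processing notes name HISAT2 and StringTie, and mm10 as the genome build, a mouse build beside human gene symbols, so no coordinates of the counted features are printed. The sources used here give neither versions nor the strand setting, and without strand a gene and its antisense partner cannot be told apart. The members and gene lists were chosen with earlier results of these data known. Features with enough counts (filterByExpr by group, minimum count 10, minimum total 15) were scaled by TMM and fitted in 1 robust quasi-likelihood model of the 9 libraries (edgeR 4.0.16, R 4.3.3), with 1 term per group. The pooled contrast gave each construct a weight of 0.5, and p-values were adjusted by Benjamini-Hochberg. The SE is the absolute log2 change over the root of the F statistic. Printed CPM are counts scaled by library size and TMM factor.

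Genes were named by a rule. It took the 4 markers and FTO, the 12 rises and 12 falls with the largest smaller change of the 2 constructs among calls without overlap and at least 1 CPM, 6 genes each way among those alike to within 2-fold and among those set aside, the 3 pooled calls set aside, and 2 to 4 called genes of lowest p in each of 32 lists (lowest p where none was called). Loci without a gene name were not named. A few genes that the rule or a list holds are not reported here. All 875 list symbols were matched, 1 by an older symbol. A group without counts was set at 3 counts over its libraries for a bound. Promoters came from RefSeq (GRCh38.p14). Alternatives were DESeq2 1.42.0, limma-voom (limma 3.58.1), RLE factors, no scaling factors, library sizes without FTO, other filters, the constructs as 1 group, a replicate block, a fold threshold and libraries left out. Replicates of 1 group differed by more than sampling noise, with a chi-square of 13.1 to 468 per gene, so none was counted as a repeat. On simulated counts of 13425 genes with the pooled contrast, 67.3% of 2-fold and 100% of 4-fold changes were recovered, with 12 false calls. The simulation gave all genes 1 common spread around the Vector means and held no library set apart like Vector replicate 3. Its shares therefore check the fitting steps and do not give the recovery or false calls in these data.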

Additional observations from a re-analysis of the deposited data

Results flagged for a closer look

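Of the genes named for their rank of change, set aside or named at the outset (members named only from a gene list are not counted), 24 differed between the constructs in the direct test of FTO against mut-FTO (edgeR's quasi-likelihood test, adjusted p below 0.05). The values that follow are log2 differences, FTO over mut-FTO. Among genes that fell in both constructs, FN1 (1.98) and IFI6 (3.13) were higher in FTO, as was IL33 (6.82, fitted against a mut-FTO group at 0 and so no bound). Among genes that rose in both, FTO was lower for KRT1 (−2.01), SPINK6 (−3.92), ABCA4 (−2.94), IGFBP2 (−3.46), LRRC32 (−2.54), TMPRSS11E (−1.09) and CCDC69 (−1.11). In these 10 genes the change was larger in mut-FTO.

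Of the set-aside genes, FTO was higher for GPC6 (1.62), CPPED1 (4.97), TAGLN (1.51), YOD1 (0.88), F3 (1.0), AMIGO2 (0.95), SERPINB2 (1.32) and THBS1 (1.84). FTO was lower for PCDHGA6 (−2.12), ABCG1 (−2.91), TNS1 (−2.82), STAT5A (−1.83), BCL2L10 (−1.89) and VANGL2 (−1.75). These genes were chosen for this pattern.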

How the results depend on the processing

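Genes of a few counts had wide intervals, and the numbers of genes called changed when single libraries, Vector replicate 3 among them, were left out. What lay behind this was not tested. Counts here are given in the order of genes higher, lower, called between the constructs, set aside among pooled calls, set aside between constructs, different in size, and alike within 2-fold, which were 233, 465, 319, 3, 94, 178 and 271. Limma-voom, RLE factors, no scaling factors, library sizes without FTO and both other filters kept each count within 1.5 times.

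DESeq2 gave 483, 767, 751, 9, 302, 380 and 581. Without Vector replicate 3 and mut-FTO replicate 2 together they were 952, 1269, 1196, 25, 488, 600 and 1345. A setting chosen after seeing the data, without Vector replicate 3, assembled loci and mitochondrially encoded genes, gave 552, 870, 1389, 14, 665, 507 and 759, with 142 genes in neither class of size, against 246. The constructs as 1 group, which puts their difference into the spread, gave 71 higher and 140 lower. An absolute log2 change of at least 1 as well gave 123 and 266, and an interval inside 1.5-fold 73 alike genes. With 1 library left out the ranges were 124 to 554, 280 to 884, 71 to 1427, 1 to 14, 12 to 681, 54 to 519, 78 to 756 and, for neither class, 149 to 309. The numbers higher also moved by over 1.5 times without Vector replicate 1 (373) and mut-FTO replicate 3 (134). For these counts the cause was not tested, except where fewer genes or libraries follow from the setting.

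Deviations of same-numbered libraries correlated at −0.127 to 0.106, and not every library correlated best with its own number. The labels do not say how replicates were handled. With 3 libraries per group these values do not settle whether the numbers pair the libraries. With a replicate block 167 genes were higher and 340 lower, 59 were set aside between constructs and 142 were alike within 2-fold. Over the named genes and alternatives, 2612 log2 values kept direction and side of the threshold, 23 passed it only under the alternative and 147 lost it. In 63 the sign reversed, in genes that were called under neither setting: set-aside genes with a pooled value near 0, the mitochondrially encoded genes and a few list members of lowest p.

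The reversed values, as log2 pooled changes, were as follows. With the constructs as 1 group the values were GPC6 0.18, VANGL2 0.15. Without Vector replicate 3 and mut-FTO replicate 2 the values were GPC6 0.23, TAGLN −0.28, F3 0.043, PCDHGA6 −0.32, ABCG1 −0.010, STAT5A −0.24, ZC3H13 0.10, FDPS −0.026, MT-ND4L 0.13, MT-ND1 0.11, MT-ND5 0.25, MT-ND4 0.19, ENG −0.20. Without Vector replicate 3, loci and mitochondrial genes the values were GPC6 0.15, TAGLN −0.26, F3 0.044, PCDHGA6 −0.082, STAT5A −0.095, ZC3H13 0.18, FDPS −0.015. With RLE factors the values were TAGLN −0.00077, YOD1 −0.013, PCDHGA6 −0.0036. With no scaling factors the values were TAGLN −0.039, YOD1 −0.050, PCDHGA6 −0.066. By DESeq2 the values were TAGLN −0.00093, YOD1 −0.013, PCDHGA6 −0.0046. By limma-voom the values were YOD1 −0.0070, PCDHGA6 −0.013. With no filter the value was YOD1 −0.00058. With a replicate block the value was YOD1 −0.0070. Without loci and mitochondrial genes the values were YOD1 −0.0078, PCDHGA6 −0.0018. With 1 library left out, values ran from −0.15 to 0.15 for GPC6, −0.26 to 0.34 for TAGLN, −0.094 to 0.053 for YOD1, −0.19 to 0.044 for F3, −0.23 to 0.36 for PCDHGA6, −0.095 to 0.26 for STAT5A, −0.80 to 0.18 for ZC3H13, −0.015 to 0.49 for FDPS, −1.78 to 0.32 for MT-ND4L, −1.11 to 0.25 for MT-ND1, −1.29 to 0.37 for MT-ND5, −1.11 to 0.31 for MT-ND4, −0.46 to 1.22 for MITF.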
